A study of Mus musculus with 6 samples.

Results

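Foxo1 and 8 genes of resting, circulating lymphocytes (Klf2, S1pr1, Ccr7, Il7r, Tcf7, Lef1, Bach2 and Zeb1) are described here, 9 genes of the 27179 Entrez gene IDs counted. They were chosen by name, as Foxo1, its targets and factors of lymphocyte quiescence, and each symbol matched 1 row of the table. Filtering on low counts left 12967 genes for testing, 8 of the members among them, and Tcf7 fell below the filter. RNA was sequenced from mouse group 2 innate lymphoid cells (ILC2s), tissue-resident lymphocytes that secrete type 2 cytokines and lack an antigen receptor. The cells were sorted through a Chat positive gate (3 samples) or a Chat negative gate (3 samples), Chat being the gene of choline acetyltransferase, which makes acetylcholine. Both gates were prepared the same way, with a SMARTer ultra-low-input kit. Strain, genotype, sex, age, tissue, any stimulus, and the reporter or stain behind the Chat gate are details that the labels used here do not state.

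In lymphocytes, the transcription factor Foxo1 is active when phosphoinositide 3-kinase (PI3K) and Akt signalling is low, and Akt phosphorylation sends it out of the nucleus. In mouse T cells, nuclear Foxo1 drives Il7r, the interleukin-7 receptor chain that keeps resting lymphocytes alive, and Klf2, a factor that in turn drives S1pr1. S1pr1, a receptor for sphingosine 1-phosphate, guides lymphocytes out of tissue into lymph and blood, and Ccr7 guides them into and through lymph nodes. Tcf7, Lef1 and Bach2 are factors of naive and memory T cells, Zeb1 is a zinc-finger repressor of lymphocytes and mesenchymal cells, and ILC2s themselves need Il7r and, during development, Tcf7.

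Promoters of 6 of the 9 members were matched in RefSeq (GRCm38.p6, the assembly behind mm10). Those of Foxo1, Il7r and Klf2 are shown because these genes read lower in the Chat positive library of every replicate number, as given below, and because Il7r and Klf2 are known Foxo1 targets. Each is the 250 bases before an annotated start, 5′ to 3′ on the gene's strand, with the KLF-type box CACCC (or its reverse complement GGGTG) in capitals. The Foxo1 window is chr3:52268087-52268336 on the plus strand, the Il7r window chr15:9529877-9530126 on the minus strand, and the Klf2 window chr8:72318812-72319061 on the plus strand. The annotated Il7r gene reaches base 9529941, so part of its window lies within the gene.
Foxo1: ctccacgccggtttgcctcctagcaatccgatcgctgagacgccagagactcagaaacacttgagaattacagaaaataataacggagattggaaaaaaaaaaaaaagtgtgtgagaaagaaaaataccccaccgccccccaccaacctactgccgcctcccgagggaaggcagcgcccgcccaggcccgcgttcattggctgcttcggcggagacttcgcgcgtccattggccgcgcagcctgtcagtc
Il7r: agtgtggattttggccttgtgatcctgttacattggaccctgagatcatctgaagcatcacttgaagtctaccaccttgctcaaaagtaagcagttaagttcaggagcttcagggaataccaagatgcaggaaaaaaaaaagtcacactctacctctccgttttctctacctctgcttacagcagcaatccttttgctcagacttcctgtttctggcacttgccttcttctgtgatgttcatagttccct
Klf2: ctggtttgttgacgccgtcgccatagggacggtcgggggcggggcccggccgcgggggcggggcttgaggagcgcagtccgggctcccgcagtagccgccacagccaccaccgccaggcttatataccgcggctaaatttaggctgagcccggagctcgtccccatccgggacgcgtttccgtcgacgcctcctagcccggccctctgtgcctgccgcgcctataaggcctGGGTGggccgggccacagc
The forkhead motif GTAAACA (or its reverse complement TGTTTAC) was in none of these 3 windows, against 3.17% of all 32851 promoter windows of the same length. The box CACCC was in the Klf2 window alone of the 3, at 1 place, against 52.0% of all windows. Neither the ZEB1-type E-box CACCTG (or its reverse complement CAGGTG) nor the BACH2 and AP-1 motif TGAGTCA (or its reverse complement TGACTCA) was in the 3 windows, against 17.2% and 4.46% of all windows. These matches describe letters in short windows, and Foxo1 is known to bind Il7r at a more distant site in T cells.

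Libraries held 37154269 to 50361306 counts, and 15335 to 16081 genes had a count. Chat itself stood at 188, 169 and 204 CPM in Chat positive 1, 2 and 3, and at 16.5, 26.5 and 17.5 CPM in Chat negative 1, 2 and 3. CPM here are counts scaled to a common library size, after TMM factors that offset differences in library composition. All 12 ILC2 markers on a list were expressed, summing to 20284 to 26797 CPM in Chat positive and 18409 to 21033 CPM in Chat negative libraries, with Il5 and Il2ra the most abundant. The cytokine gene Il5 averaged 11186 and 7012 CPM in the Chat positive and Chat negative gates. With the replicate number in the fit, edgeR called Il5 (adjusted p = 0.0472) and Il1rl1 (0.0419, named after its values were seen) higher in Chat positive cells, 2 of the 12 against 0.216% of all genes, or neither without robust dispersions (0.0872 and 0.104). Libraries with the replicate number 2 stood apart from numbers 1 and 3 in both gates. With the number as a term beside the gate, edgeR's quasi-likelihood test of the number passed at an adjusted p under 0.05 for 4208 of 12967 genes, or 32.5%. The labels do not say what the numbers stand for, and name no separate animals behind the samples. The p-values therefore rest on sample-to-sample spread that could be technical.

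Foxo1 read lower in Chat positive than in Chat negative cells. It stood at 103, 75.4 and 109 CPM in Chat positive 1, 2 and 3, against 158, 139.9 and 121 CPM in Chat negative 1, 2 and 3. Every Chat positive library was below every Chat negative one. The means were 95.8 ± 18.0 and 139.8 ± 18.5 CPM (SD, n = 3 each), a ratio of 0.686. The log2 change, Chat positive minus Chat negative, was -0.54 (SE 0.17, 95% interval -0.95 to -0.14) and did not pass after Benjamini-Hochberg adjustment (edgeR's quasi-likelihood test, adjusted p = 1.00). With the replicate number in the fit it was -0.55 (SE 0.15, edgeR adjusted p = 0.210). Foxo1 lies on chromosome 3 from 52268337 to 52350109. The antisense gene Gm20402, which has no row in the table, shares 674 exon bases with it, and whether reads were counted by strand is not given in the sources used here.

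Zeb1, the zinc-finger repressor, was separated in the same direction by a smaller amount. It stood at 31.6, 28.3 and 36.1 CPM in Chat positive 1, 2 and 3, against 44.4, 39.2 and 40.7 CPM in Chat negative 1, 2 and 3. Its gates did not overlap, and its libraries varied less within a gate than those of any other member relative to their mean. The log2 change was -0.37 (SE 0.13, 95% interval -0.69 to -0.06), again not past the threshold (edgeR adjusted p = 1.00). Zeb1 lies on chromosome 18 from 5591327 to 5775468, and the antisense gene Gm10125 shares 198 of its exon bases.

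Foxo1 and Zeb1 were 2 of 8 tested members whose gates did not overlap, both lower in Chat positive cells. Over all tested genes the gates did not overlap for 8.14%, lower in Chat positive for 3.61% and higher for 4.53%. No member passed in edgeR, against 0.00771% of all genes, a single gene, which was Chat. Before adjustment 2 members had p under 0.05, both lower in Chat positive, against 2.43% of all genes in either direction and 1.28% lower. DESeq2 without the number called 0.0309% of genes, and neither it nor limma-voom called a member. Of the 8, 5 had a log2 change below 0, against 49.1% of all genes, with a median of -0.31 beside 0.00 for all genes.

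**Figure D1:**
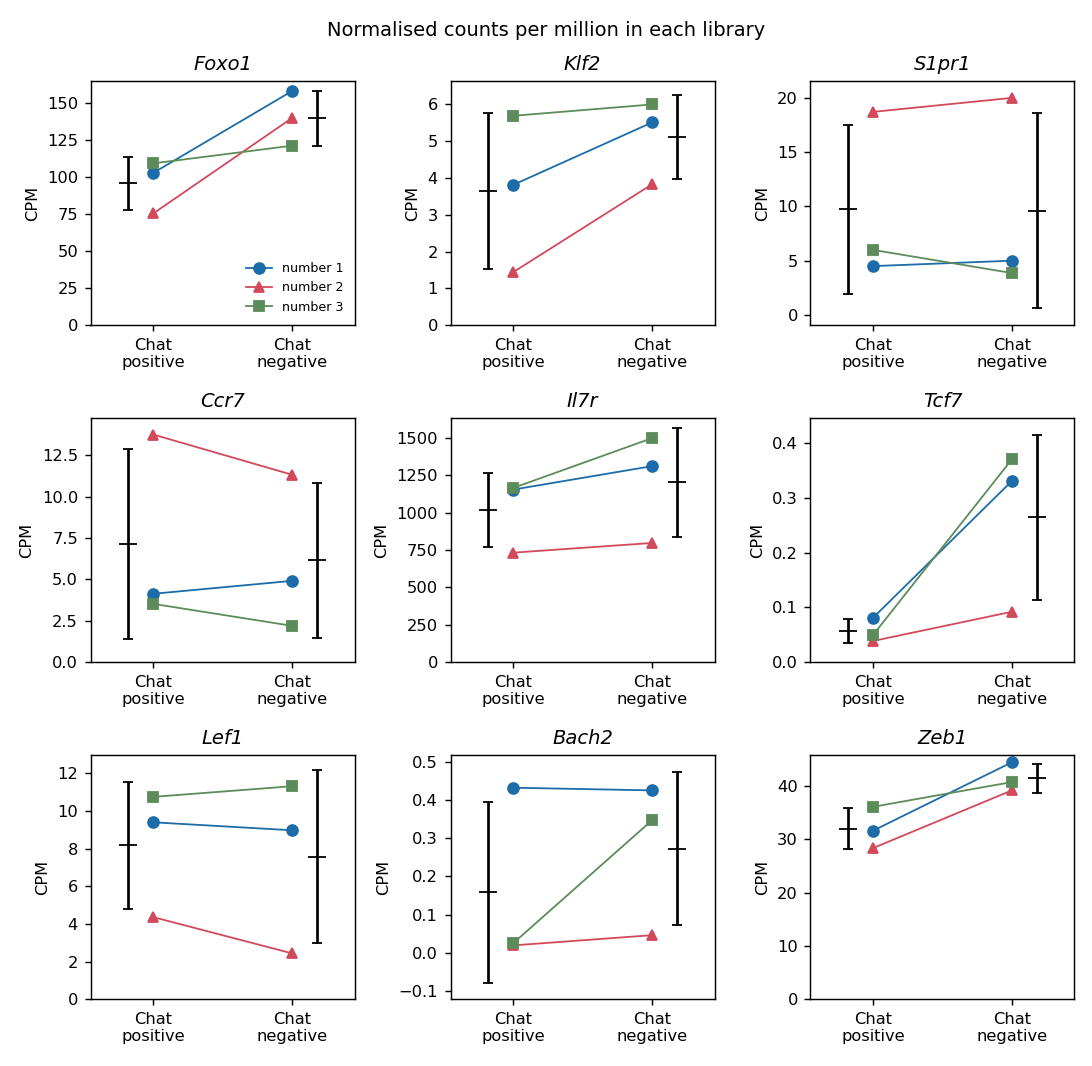
Normalised CPM (linear axes) of the 9 genes in each library, Chat positive left and Chat negative right, with lines joining libraries of the same replicate number and black bars for mean ± SD (n = 3). Foxo1 and Zeb1 lie lower in each Chat positive library than in any Chat negative one, while S1pr1 and Ccr7 are set apart by number 2, at 18.7 and 20.04 CPM for S1pr1 and 13.8 and 11.3 CPM for Ccr7.

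Il7r, the receptor chain for interleukin-7 and for thymic stromal lymphopoietin, was by far the most abundant member. It stood at 1153, 732 and 1164 CPM in Chat positive 1, 2 and 3, against 1310.1, 797 and 1497 CPM in Chat negative 1, 2 and 3. The gates overlapped, and both number 2 libraries were the lowest of their gate. Within each number the Chat positive library was the lower one, with log2 differences of -0.18, -0.12 and -0.36 for numbers 1, 2 and 3 (0.5 CPM added). Without the number in the fit the log2 change was -0.24 (SE 0.27), and with it -0.22 (SE 0.06), with an edgeR adjusted p of 0.122. It was -0.05 when Chat positive 2 was left out of the fit without the number.

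Klf2, the factor upstream of S1pr1 in T cells, was expressed at a low level. It stood at 3.81, 1.44 and 5.69 CPM in Chat positive 1, 2 and 3, against 5.51, 3.83 and 5.998 CPM in Chat negative 1, 2 and 3. The gates overlapped, and again the Chat positive library was the lower one for each number, with log2 differences of -0.48, -1.16 and -0.07. The log2 change was -0.49 (SE 0.48) without the number and -0.64 (SE 0.27) with it (edgeR adjusted p = 0.275). Without Chat positive 2 it was -0.11 in the fit without the number.

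Foxo1, Zeb1, Il7r and Klf2 read lower in the Chat positive library for 3 of 3 numbers, 4 of 8 tested members against 17.3% of all genes. The numbers were treated as pairs in a second fit, since same-numbered libraries deviated together. In that fit edgeR called 44 genes (0.339%), or 1 gene without robust dispersions, and no member, although 4 members had an unadjusted p under 0.05, all lower in Chat positive, against 16.5% of all genes in either direction and 8.3% lower. DESeq2 with the number called 476 of the 8693 genes to which it gave an adjusted p (5.48%), and among them 3 of the 4 members with one. These were Foxo1 (log2 change -0.56, DESeq2 adjusted p = 0.000830), Il7r (-0.23, 0.0183) and Zeb1 (-0.39, 0.0254), all lower in Chat positive cells, as were 3.28% of genes, while S1pr1 was not called. With the number in limma-voom, their adjusted p-values were 0.142, 0.155 and 0.156, so DESeq2 alone of these tools called them. Across the 22 alternatives run, the log2 change stayed below 0 for Foxo1, Zeb1, Il7r and Klf2. These 4 were picked as lower for each number in the same libraries, so that sign was largely set in advance. Bach2, at 18 counts or fewer, also stayed below 0 in the 20 alternatives that gave it a value.

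Transcript length moved with the change between the gates across all genes. Genes whose longest transcript exceeds 6 kb had a median log2 change of -0.11, and 70.9% of these 1696 genes were below 0. The 2516 genes with a transcript under 2 kb had a median of 0.07, and 33.5% were below 0, with lengths known for 93.2% of tested genes. The longest annotated transcripts of Foxo1, Zeb1, Il7r and Klf2 have 8665, 5801, 3540 and 1847 bases. With each library corrected for transcript length and GC content, the log2 changes were -0.40 (SE 0.17) for Foxo1, -0.30 (SE 0.13) for Zeb1, -0.32 (SE 0.29) for Il7r and -0.50 (SE 0.44) for Klf2. After that correction neither Foxo1 nor Zeb1 was under 0.05 before adjustment in the edgeR fit without the number. With the number and the correction together, all 4 genes were under 0.05 before adjustment, as were 1675 of 12967 genes, and their edgeR adjusted p-values were 0.369 for Foxo1, 0.232 for Zeb1, 0.0955 for Il7r and 0.366 for Klf2.

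**Figure D2:**
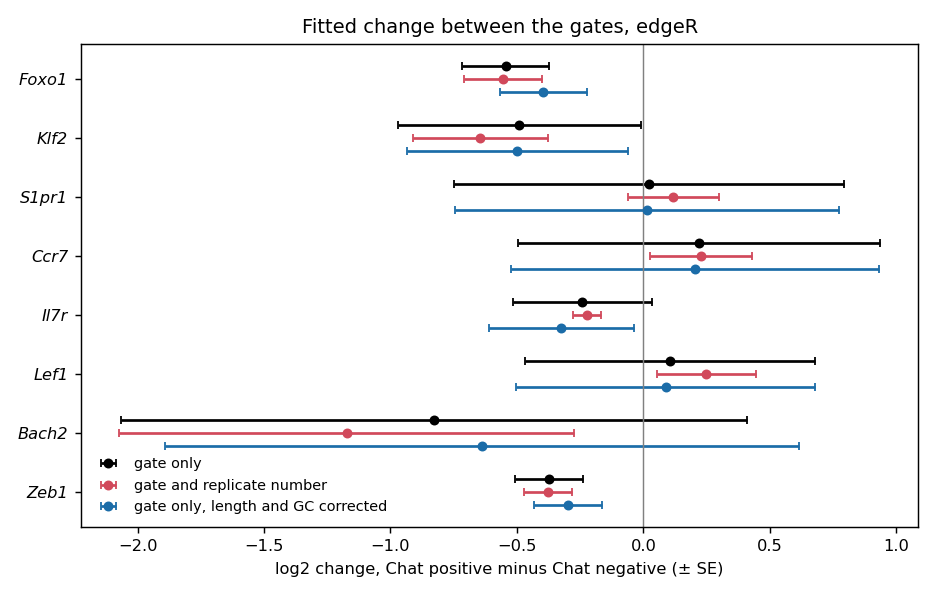
Fitted log2 change (Chat positive minus Chat negative, ± SE) of the 8 tested genes in edgeR with the gate only (black), with gate and replicate number (red) and with a length and GC correction (blue). Foxo1, Zeb1, Il7r, Klf2 and Bach2 keep a change below 0 under all 3. The SE of each of the 8 genes is smaller once the number is in the fit.

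S1pr1 and Ccr7, the receptors for leaving tissue and for entering lymph nodes, showed no difference between the gates that these libraries could resolve. S1pr1 stood at 4.49, 18.7 and 5.99 CPM in Chat positive 1, 2 and 3, against 4.99, 20.04 and 3.84 CPM in Chat negative 1, 2 and 3. Its number 2 libraries were 3.58-fold above the mean of numbers 1 and 3 in the Chat positive gate and 4.54-fold above it in the Chat negative gate. With the number in the fit the log2 change between the gates was 0.12 (SE 0.18), with a 95% interval of -0.29 to 0.52, which still leaves room for a modest change in either direction.

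Ccr7 had the same layout. It stood at 4.14, 13.8 and 3.53 CPM in Chat positive 1, 2 and 3, against 4.92, 11.3 and 2.20 CPM in Chat negative 1, 2 and 3. Number 2 was 3.59-fold above numbers 1 and 3 in the Chat positive gate and 3.18-fold in the Chat negative gate. The log2 change between the gates was 0.23 (SE 0.20, 95% interval -0.23 to 0.68) with the number in the fit. The gates overlapped for both receptors, and their levels differed more between numbers than between gates.

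The other members did not follow S1pr1 and Ccr7 in number 2. Il7r in number 2 was at 0.632 of the mean of numbers 1 and 3 in the Chat positive gate and 0.568 in the Chat negative gate. Lef1 was at 0.433 and 0.241, and Klf2 at 0.303 and 0.665. Number 2 was low in Klf2 and high in S1pr1, the gene that Klf2 drives in T cells. The test of the number, added after the data were seen, passed in edgeR for 5 of 8 members, beside the 32.5% of all genes given above. These were Il7r (adjusted p = 0.000108), S1pr1 (0.000154), Ccr7 (0.000444), Lef1 (0.00174) and Klf2 (0.0385, or 0.0555 without robust dispersions, where 29.8% of all genes passed). Foxo1 and Zeb1 did not pass, with adjusted p-values of 0.491 and 0.352.

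**Figure D3:**
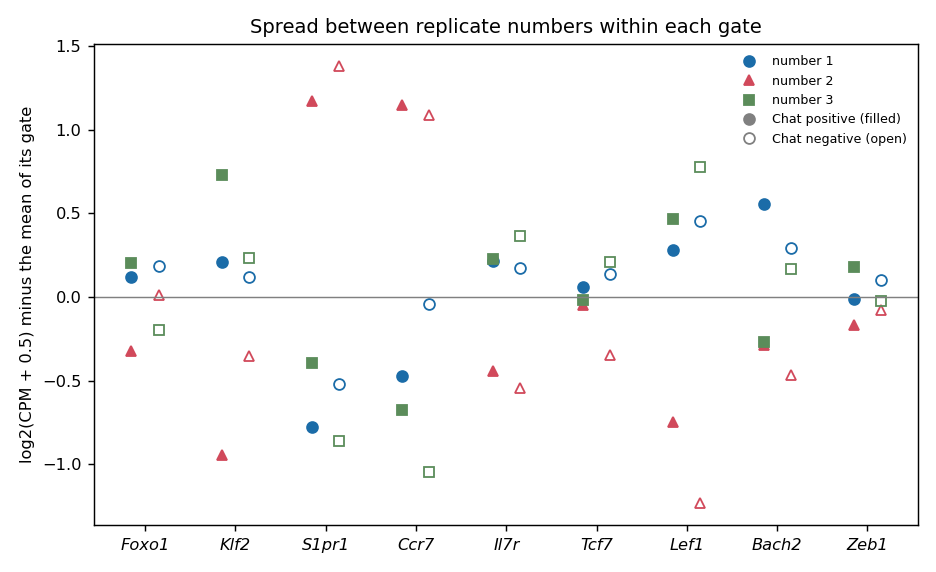
Deviation of each library from the mean of its gate, in log2(CPM + 0.5), for the 9 genes, with filled symbols for Chat positive, open symbols for Chat negative and a colour for each replicate number. Number 2 (red triangles) is high for S1pr1 and Ccr7 and low for Klf2, Il7r and Lef1 in both gates, while Foxo1 shows no such shared offset. Zeb1 is lowest in number 2 in both gates by a small amount, at 0.838 (Chat positive) and 0.920 (Chat negative) of the mean of numbers 1 and 3.

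Markers of other cells that carry S1pr1 or Ccr7 were looked at beside these values. The endothelial genes Cdh5, Lyve1 and Kdr had 0 counts in all 6 libraries, where 3 counts would be 0.0807 CPM in the smallest one. The endothelial, epithelial and stromal list summed to 98.3 to 157 CPM in Chat positive and 91.8 to 169 CPM in Chat negative libraries, with number 2 the lowest in each gate and Pecam1 and Epcam its most abundant genes. Others on it, named after their values were seen, were detected at low levels. Pdgfrb had 46 to 301 counts, Krt18 33 to 127 and Col1a1 25 to 76, and Pdgfra and Prox1 had at most 32 and 19. Pdgfrb averaged 2.77 CPM in Chat positive and 3.88 CPM in Chat negative cells, and Prox1 0.195 and 0.0156 CPM. The dendritic cell genes Flt3 and Itgax had at most 1 and 12 counts, and the B cell gene Ms4a1 at most 1. The myeloid and mast cell list summed to 33.5 CPM in Chat positive 2 and 39.6 CPM in Chat negative 2, against 148 to 227 CPM in the other 4 libraries, mostly from the basophil protease gene Mcpt8, with Cd68 next. The T cell list summed to 214, 228 and 199 CPM in Chat positive 1, 2 and 3, and to 215, 224 and 196 CPM in Chat negative 1, 2 and 3, so that number 2 was the highest in each gate, as for S1pr1 and Ccr7. Its sum came mostly from Lat and Cd3g. Of these, Lat was highest in number 2 in each gate, and Cd3g was lowest there. Cd3g stood at 39.1, 14.6 and 32.6 CPM in Chat positive 1, 2 and 3, and at 39.8, 19.1 and 27.2 CPM in Chat negative 1, 2 and 3. It passed the test of the number (edgeR adjusted p = 0.00114). Cd28, a T cell costimulatory receptor named after its values were seen, stood at 10.8, 28.8 and 6.71 CPM in Chat positive 1, 2 and 3, against 8.53, 22.4 and 4.56 CPM in Chat negative 1, 2 and 3, and passed the test of the number (edgeR adjusted p = 2.82e-05). Cd8b1 had 0 counts in all 6 libraries, and Cd5 had no more than 6. Others of the list, named after their values were seen, were detected. Cd247 had 290 to 591 counts, Cd3e 94 to 210, Cd3d 36 to 87, Themis 31 to 124, and Cd4 at most 50. Cd4 averaged 0.349 CPM in Chat positive and 0.0934 CPM in Chat negative cells, and Cd6 1.03 and 0.273 CPM. Cd3e, Cd3d and Themis lay the other way, with Cd3e at 3.07 and 4.01 CPM. Of the 8 tested T cell markers, 4 were above 0 and 4 below. In bulk samples, fewer cells of a type and less RNA per cell cannot be told apart.

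B cell markers summed to 69.2 to 86.6 CPM in Chat positive and 66.5 to 74.7 CPM in Chat negative libraries, almost all of it Cd79b, with 7 of 9 below the filter and Ebf1 next. Natural killer cell and ILC1 markers summed to 219, 105 and 187 CPM in Chat positive 1, 2 and 3, and to 209.7, 109.7 and 157 CPM in Chat negative 1, 2 and 3, lowest in number 2 as for Il7r. Their sum came mostly from Prf1 and Gzma, and Gzma passed the test of the number (edgeR adjusted p = 3.99e-05). Of the 10 markers, 6 were below the filter. Ncr1, Klrb1c, Eomes and Tbx21 had no more than 15 counts in a library, and Klra8 and Klre1 had 0 in all 6. ILC3 markers summed to 12.7 to 34.8 CPM in Chat positive and 20.5 to 35.5 CPM in Chat negative libraries, mostly from Lta and Il22. ILC precursor markers summed to 568 to 638 CPM in Chat positive and 645 to 668 CPM in Chat negative libraries, so that the sums did not overlap. They came mostly from Nfil3 and Tox2, with the precursor factor Zbtb16 at 0 counts in all 6. Read singly, both genes overlapped between the gates. Nfil3 averaged 461 CPM in Chat positive and 524 CPM in Chat negative cells, and Tox2 lay the other way, at 67.3 and 56.0 CPM. Against 5.48% of all genes, DESeq2 with the number called 4 ILC2 markers higher, and 1 natural killer cell and ILC1 marker each way. It called 1 gene lower in each of the ILC precursor, myeloid and endothelial lists. None was called in the T cell, B cell and ILC3 lists. Gzma was called higher (DESeq2 adjusted p = 1.13e-05), and Epcam (0.00480), Mcpt8 (0.0260) and Nfil3 (0.0279) lower. In edgeR with the number their adjusted p-values were 0.0599, 0.109, 0.124 and 0.136. The part of these other cell types in the results above was not tested.

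The T cell factors Lef1, Tcf7 and Bach2 were low. Lef1 stood at 9.41, 4.37 and 10.8 CPM in Chat positive 1, 2 and 3, against 8.98, 2.44 and 11.3 CPM in Chat negative 1, 2 and 3. The gates overlapped, with a log2 change of 0.11 (SE 0.57), or 0.25 (SE 0.20, 95% interval -0.19 to 0.69) with the number in the fit. The antisense gene Gm43352, which has no row in the table, shares 1208 exon bases with Lef1.

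Tcf7 was near the limit of detection. It had 3, 2 and 2 counts in Chat positive 1, 2 and 3, against 14, 4 and 16 counts in Chat negative 1, 2 and 3. In CPM these were 0.0811, 0.0388 and 0.0497 against 0.331, 0.0922 and 0.371. The gates did not overlap, but so few reads lie under the low-count filter, and without that filter the edgeR adjusted p was 0.968.

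Bach2, a repressor that restrains effector genes in T cells, had 16, 1 and 1 counts in Chat positive 1, 2 and 3, against 18, 2 and 15 counts in Chat negative 1, 2 and 3. The gates overlapped, and its log2 change of -0.83 had an SE of 1.24. Its antisense gene Bach2os shares 537 exon bases, and with an unknown strand setting reads of the pair cannot be told apart.

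Levels were ordered per kb of the longest transcript, so that genes could be set beside each other. Il7r stood at 287 CPM per kb in Chat positive and 339 in Chat negative cells, above Foxo1 at 11.1 and 16.1 and Zeb1 at 5.52 and 7.14 CPM per kb. Their ranges over the 6 libraries did not overlap, at 207 to 423, 8.70 to 18.3 and 4.89 to 7.66 CPM per kb. Ccr7 (3.61 in Chat positive and 3.11 in Chat negative cells), S1pr1 (3.20 and 3.16), Lef1 (2.24 and 2.07) and Klf2 (1.97 and 2.77) followed with ranges that overlapped one another, and those of Ccr7 and S1pr1 also reached into that of Zeb1. Tcf7 and Bach2 were below all of these, at 0.0229 and 0.0179 CPM per kb in Chat positive and 0.107 and 0.0307 in Chat negative cells.

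Genes upstream of Foxo1 were mixed. In the list of FOXO relatives and the PI3K and Akt pathway, none of 24 tested genes passed in edgeR with or without the number. Of these, 16 were below 0, or 12 after the length and GC correction, against 49.1% and 50.3% of all genes. The median log2 change was -0.11, or -0.01 after that correction. The PI3K catalytic subunit gene Pik3cd stood at 807 ± 61.9 CPM in Chat positive and 931 ± 25.0 CPM in Chat negative cells, without overlap. The PI3K gamma adaptor gene Pik3r5 lay the other way, at 64.5 ± 2.39 and 49.6 ± 4.38 CPM (SD, n = 3 each), also without overlap. Inpp4b, a phosphatase of the pathway, stood at 80.2 ± 9.12 and 104.5 ± 22.2 CPM. The relatives Foxo3 and Foxo4, named after their values were seen, stood at 2.76 to 4.29 and 0.486 to 1.30 CPM in Chat positive, and 3.38 to 4.63 and 0.520 to 0.996 CPM in Chat negative libraries.

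Of 20 other tested genes reported as Foxo1 targets, 15 were below 0, against 49.1% of all genes. After the length and GC correction 15 were, against 50.3% of all genes. The uncorrected median was -0.12, and none passed without the number. Ctla4, a checkpoint receptor, went against the list. It stood at 136, 101 and 122 CPM in Chat positive 1, 2 and 3, against 83.7, 79.9 and 79.5 CPM in Chat negative 1, 2 and 3, and was called higher in the edgeR fit with the number (log2 change 0.55, adjusted p = 0.0419, or 0.104 without robust dispersions). The stress-response gene Sesn1 stood at 109 ± 2.36 and 95.7 ± 4.42 CPM without overlap, and Irs2, the insulin receptor substrate, at 505 ± 199 and 735 ± 209 CPM.

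Among 20 other quiescence regulators, 13 were below 0 with a median of -0.07, against 49.1% of all genes, and 14 passed the test of the number, against 32.5% of all genes. Vsir, which encodes the checkpoint protein VISTA, stood at 108, 45.01 and 99.9 CPM in Chat positive 1, 2 and 3, against 175, 56.5 and 133 CPM in Chat negative 1, 2 and 3. The Chat positive library was the lower one for each number, and Vsir was called lower in the edgeR fit with the number (log2 change -0.48, adjusted p = 0.0478, or 0.121 without robust dispersions). Bcl11b, a T cell and ILC2 factor, stood at 148 ± 18.8 and 176 ± 28.0 CPM, the cell-cycle inhibitor Rb1 at 108 ± 16.3 and 134 ± 31.7, and Klf13 at 39.8 ± 10.8 and 51.0 ± 9.83, with the gates of all 3 overlapping.

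For sphingosine 1-phosphate signalling, none of 16 tested genes passed, and the median was -0.13. Of these, 12 were below 0, or 13 after the length and GC correction, against 49.1% and 50.3% of all genes. The beta-arrestin gene Arrb1, which turns off G protein-coupled receptors, stood at 186 ± 16.7 CPM in Chat positive and 230.5 ± 38.8 CPM in Chat negative cells. Plpp3 and Gna13 had log2 changes of -1.01 (SE 0.51) and -0.19 (SE 0.14). Plpp3 had few reads, with 9, 6 and 7 counts in Chat positive 1, 2 and 3, against 15, 16 and 15 in Chat negative 1, 2 and 3. Named after their values were seen, the relatives S1pr4 and S1pr2 were more abundant than S1pr1 per kb of transcript, with S1pr4 at 28.6 to 39.4 and S1pr2 at 8.05 to 11.2 CPM per kb over the 6 libraries, against 1.26 to 6.58 for S1pr1. Cd69, whose protein binds S1PR1 and takes it off the cell surface, also named after its values were seen, stood at 465, 255 and 494 CPM in Chat positive 1, 2 and 3, against 424, 267 and 502 CPM in Chat negative 1, 2 and 3. It was lowest in number 2, where S1pr1 was highest, and passed the test of the number (edgeR adjusted p = 4.38e-05).

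In the list for lymph node entry and exit, 11 of 16 tested genes were below 0, against 49.1% of all genes. After the length and GC correction 10 were, against 50.3% of all genes. The uncorrected median was -0.11, with none past the threshold. Itgae, the integrin chain that binds epithelial E-cadherin, stood at 523, 476 and 449 CPM in Chat positive 1, 2 and 3, against 713, 536 and 713 CPM in Chat negative 1, 2 and 3. Itgb1 and the migration regulator Dock2 also had gates that did not overlap, at 155 ± 4.39 and 187 ± 17.9 CPM and at 425 ± 10.2 and 492 ± 35.1 CPM. No other gene of the list was separated between the gates.

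Of 14 tested partners of the interleukin-7 receptor, 10 were below 0, against 49.1% of all genes. After the length and GC correction 9 were, against 50.3% of all genes. The uncorrected median was -0.08, with none past the threshold. The kinase gene Jak1 stood at 1113 ± 95.2 CPM in Chat positive and 1247 ± 70.0 CPM in Chat negative cells, the survival gene Mcl1 at 242 ± 78.4 and 295 ± 43.6, and Stat5a at 47.8 ± 5.80 and 43.4 ± 4.76.

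Partners of TCF and LEF factors and the Wnt pathway lay below 0 for 17 of 18 tested genes, against 49.1% of all genes, with a median of -0.15. After the length and GC correction 13 of 18 were below 0, against 50.3% of all genes. None passed in edgeR with or without the number. The Wnt feedback gene Axin2 stood at 12.5, 17.0 and 12.5 CPM in Chat positive 1, 2 and 3, against 17.7, 17.5 and 18.0 CPM in Chat negative 1, 2 and 3. The coactivator gene Bcl9l also had gates that did not overlap, with a log2 change of -0.39 (SE 0.22), and the corepressor gene Tle4 had one of -0.68 (SE 0.32).

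Relatives of Bach2 with AP-1 factors, and relatives and partners of Zeb1, were centred near 0, with medians of -0.05 and -0.04 over 15 and 10 tested genes and none past the threshold. Batf, an AP-1 factor that competes with Bach2, stood at 371, 321 and 384 CPM in Chat positive 1, 2 and 3, against 278, 296 and 314 CPM in Chat negative 1, 2 and 3, without overlap. Jund and Fos had log2 changes of -0.29 (SE 0.21) and -0.35 (SE 0.23). Cdh1, which encodes E-cadherin and is repressed by Zeb1 in epithelial cells, was low at 0.727 ± 0.420 and 2.21 ± 1.79 CPM. The corepressor gene Ctbp1 stood at 243 ± 32.1 and 293 ± 25.5 CPM, and Grhl2 at 5.99 ± 2.62 and 3.58 ± 0.855 CPM. DESeq2 with the number called more genes of these lists than edgeR did, beside its 5.48% of all genes. It called 6 genes lower and 1 higher in the lymph node list, 4 lower among the quiescence regulators, 2 lower and 1 higher in the FOXO and PI3K list, and none in the TCF and Wnt or the ZEB list. It called 1 higher among the other Foxo1 targets, 1 lower in each of the sphingosine 1-phosphate and interleukin-7 lists, and 1 each way in the Bach2 list.

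**Figure D4:**
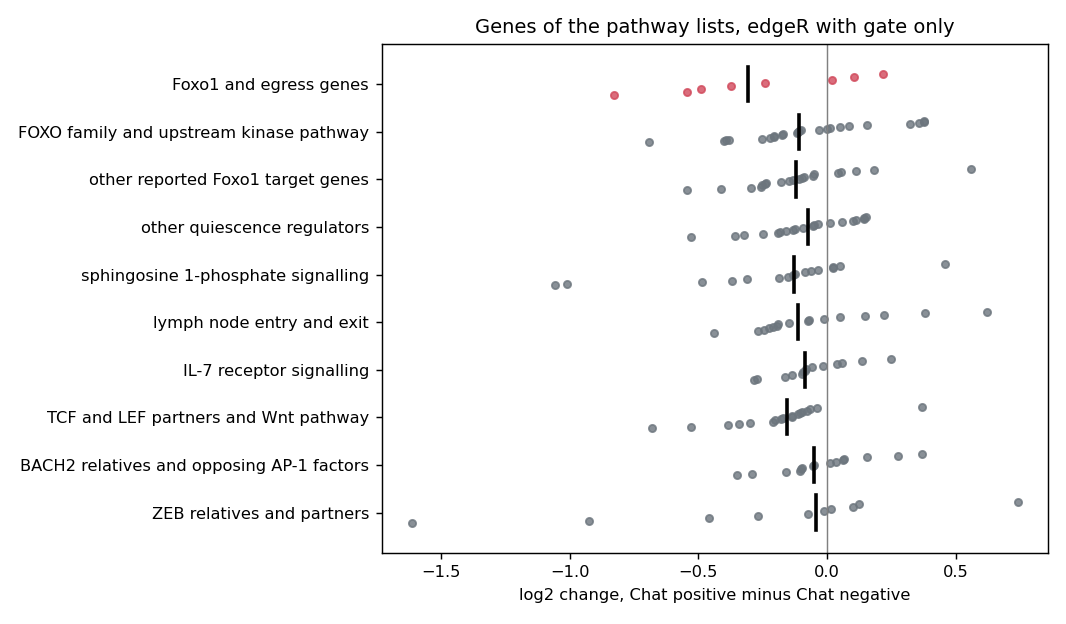
Fitted log2 change (Chat positive minus Chat negative) of every tested gene in the member set (red) and in 9 pathway lists (grey), with black bars at list medians. The medians lie between -0.31 for the members and -0.04 for the ZEB list, and 17 of 18 genes of the TCF, LEF and Wnt list lie below 0.

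The genes whose profile over the 6 libraries lay closest to Foxo1 were Ago2, Hira, Enah, Prkaca and Git1. Likeness was the root mean square difference of centred log2 CPM, over 8188 named protein-coding genes with a mean of at least 10 CPM, and the 5 values ran from 0.08 to 0.11. Zeb1 ranked 31 by this measure, at 0.15, and Il7r 3192, at 0.37. Ago2, the small RNA effector, stood at 47.7, 38.8 and 57.9 CPM in Chat positive 1, 2 and 3, against 80.6, 63.9 and 62.4 CPM in Chat negative 1, 2 and 3. Ago2 and Enah, the actin regulator, have longest transcripts of 13800 and 11229 bases, longer than that of Foxo1. Those of Hira, Git1 and Prkaca are shorter than that of Foxo1, at 4218, 3512 and 2276 bases.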

How the data were processed

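RNA was sequenced from 6 sorted ILC2 samples, 3 per gate, and gates were taken from the labels. The deposited values are raw counts per Entrez gene ID; CASAVA 1.8.2, STAR 2.3.0 and mm10 are named in the submitters' processing notes, and the counting program is not given in the sources used here. Ultra-low-input libraries are amplified, without molecular identifiers in the labels' protocols. The 95% intervals given come from the edgeR quasi-likelihood fits. Their SE includes spread between libraries as well as counting error. Symbols, gene coordinates and promoters came from RefSeq GRCm38.p6, which matched 25275 of 27179 IDs. The other 1904 held at most 0.222% of a library's counts. Transcript lengths and GC content are those of the longest GENCODE transcript of each gene.

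From these counts, edgeR 4.0.16 (R 4.3.3) with TMM factors, filterByExpr and a robust quasi-likelihood F-test compared the gates, with Benjamini-Hochberg adjustment over 12967 genes and a threshold of 0.05. Replicate numbers were not in the main fit. Deviations of same-numbered libraries from their gate means correlated at 0.29, 0.67 and 0.43 for numbers 1, 2 and 3 over 12967 genes, so the blocked fit is given where it changes a call. Chat negative 1 also correlated at 0.30 with Chat positive 3. Alternatives were other scaling and filters, DESeq2 1.42.0, limma-voom 3.58.1, a length and GC correction, and leaving out libraries. The test code was checked on counts simulated without an effect of the replicate number. That check did not cover DESeq2 or limma-voom with the number, nor the length and GC correction.

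The 9 members, 9 pathway lists and 8 marker lists were chosen with earlier results of these data known. The genes named are the members, Chat, the 3 tested genes of smallest p and any called gene in each pathway list, the 2 most abundant markers of each marker list, and the 5 genes closest to Foxo1; others are said to be named after their values were seen, or are markers at or near 0.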

Additional observations from a re-analysis of the deposited data

How the results depend on the processing

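Over all genes, 1 gene, Chat, was past the threshold in edgeR. The replicate block gave 44 genes in edgeR, and Chat then had an adjusted p of 0.0961; DESeq2 gave 4 genes, DESeq2 with the block 476, and the length and GC correction with the block 8. Leaving out 1 library gave 0 to 1 genes in edgeR; where it gave 0 (without Chat positive 1 or 3, or Chat negative 1 or 3), 175, 350, 136 and 316 genes had an unadjusted p under 0.05. Leaving out both libraries of number 1, 2 or 3 gave 0, 2 and 0 genes, with 53, 1154 and 303 at an unadjusted p under 0.05. Members past the threshold numbered 0 in edgeR and in the alternatives run, except 3 in DESeq2 with the block. Their median log2 change of -0.31 ran from -0.44 to -0.28 when 1 library was left out and was -0.13 without number 3. Direction turned for 3 members. Leaving out 1 library gave S1pr1 -0.88 to 1.15, Ccr7 -0.68 to 1.01 and Lef1 -0.31 to 0.51; S1pr1 was -0.11 without both libraries of number 3, and Lef1 -0.012 without those of number 2. The cause was not tested. Foxo1 ran from -0.67 to -0.40 and Zeb1 from -0.48 to -0.29 when 1 library was left out. Ccr7 had no value under the stricter filter, and Bach2 had none there or without number 1. With 3 libraries a gate, Bach2 and Tcf7, at 18 counts or fewer, are limited by depth.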
